A study of Homo sapiens with 12 samples.

Results

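The 10 genes described here encode the factors that license human replication origins and the factor that holds licensing in check: the helicase subunits MCM2, MCM3, MCM4, MCM5, MCM6 and MCM7, the loading factors CDC6 and CDT1, the inhibitor GMNN (geminin) and the helicase-associated protein MCM10. They were chosen by gene symbol, and all 10 were present among the 18987 genes listed in both deposited tables of a study in IMR5, a MYCN-amplified human neuroblastoma cell line. Each of 4 groups held 3 libraries, and total RNA was sequenced. One table compared cells given the vehicle DMSO, for a time that is not stated, with cells given 100 nM selinexor for 24 h. The other compared cells nucleofected with control siRNA or with the siRNA against XPO1 numbered 10, both collected at 72 h. Selinexor is a small molecule that blocks XPO1 (exportin 1), the receptor that carries many proteins out of the nucleus. A single cell line and a single siRNA were used. Nothing in the labels says that replicates were separate cultures, so each p-value reflects the spread among the libraries alone, which may be technical.

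Licensing takes place in late mitosis and G1. The origin recognition complex marks an origin, CDC6 joins it, and CDT1 brings in the ring of MCM2 to MCM7, which is loaded around DNA as an inactive double hexamer. In S phase, kinases and firing factors, among them CDC45 and the GINS complex, turn the ring into the active helicase with the help of MCM10, while geminin binds CDT1 and CDT1 is degraded, so that no origin is loaded again before the next division. Many of these genes are textbook targets of the E2F transcription factors, which drive genes of the G1-S transition, and MYCN-amplified neuroblastoma is known for high expression of replication genes.

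Because these genes share an upstream regulator by background knowledge, the sequence around their start sites is shown first. RefSeq windows on GRCh38.p14, from 250 bases before to 50 bases after an annotated start, were used for 8 of the 10 genes. No window was used for MCM4 or MCM5. A 7-letter E2F motif, TTTCGCG or TTTGGCG on either strand, occurred in all 8 genes, against 3.85% of the 27305 genes and 3.19% of the 35116 windows in the table. The matches are printed below with flanking bases, 5′ to 3′ on the strand of the gene, with the matched letters in capitals. Where a match on the gene's strand overlaps one on the other strand, the capitals cover both.
CDC6 chr17:40287841-40287867 plus strand: gaggccgggcTTTGGCGggaggtggga
CDC6 chr17:40287876-40287902 plus strand: gccattcggaTTTGGCGcgagcgcggc
CDT1 chr16:88803752-88803778 plus strand: ccgcgggaaaTTTGGCGggaaccgcgc
GMNN chr6:24775323-24775349 plus strand: ctgggtcggtTTTGGCGcgctctcact
MCM2 chr3:127598404-127598433 plus strand: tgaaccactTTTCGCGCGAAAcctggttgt
MCM3 chr6:52284730-52284756 minus strand: gttcggaagtTTTCGCGccggggtgga
MCM6 chr2:135876513-135876542 minus strand: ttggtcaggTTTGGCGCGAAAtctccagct
MCM6 chr2:135876575-135876604 minus strand: ggctttgcaTTTGGCGCGAAAtccctttcc
MCM7 chr7:100101390-100101416 minus strand: gggggcgacgTTTCGCGccaatttcgg
MCM10 chr10:13161553-13161579 plus strand: cggttggaatTTTGGCGggttcagctg

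Counting the annotated start as position 1, the CDC6 matches began at positions -28 and 8, the CDT1 match at -27 and the MCM10 match at 6. The GMNN match began at -80, the MCM3 match at -4 and the MCM7 match at -9. In MCM6 matches on both strands interlocked at -90 and at -152, and in MCM2 they did so at 3. A longer 8-letter form, TTTCGCGC or TTTGGCGC, which contains the shorter one, was found in 6 of the 8 genes (MCM2, MCM3, MCM6, MCM7, CDC6 and GMNN) and in 1.4% of all genes. CCAAT, the letters bound by NF-Y, searched like the CHR letters on both strands, was also found in 6 of 8, all but MCM2 and CDT1, where 39.7% of all genes had it. The CHR letters TTTGAA or TTCGAA, a motif of late cell cycle genes, occurred in MCM6 alone among the 8, against 19.5% of all genes. Such a match describes letters, not a bound site. CDC6 is given at greater length as 1 example of a gene with both kinds of match. MCM3, MCM6, MCM7, MCM10 and GMNN held both as well, and in MCM6, MCM7 and GMNN they lay closer together. For CDC6, 3 CCAAT matches and 1 E2F match are in capitals in the 250 bases before its start. Of the CCAAT matches, 2 lie on the other strand and read ATTGG in the printed sequence.
CDC6 chr17:40287629-40287878 plus strand: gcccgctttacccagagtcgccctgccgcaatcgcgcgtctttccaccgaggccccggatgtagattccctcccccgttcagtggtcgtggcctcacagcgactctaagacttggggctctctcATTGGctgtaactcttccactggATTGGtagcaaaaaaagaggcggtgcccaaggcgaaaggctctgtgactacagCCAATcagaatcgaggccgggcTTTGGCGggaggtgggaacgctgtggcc

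Estimated sequencing depth was 39.5 to 40.9 M reads with DMSO, 26.9 to 33.8 M with selinexor, 40.6 to 54.0 M with control siRNA and 33.5 to 55.8 M with XPO1 siRNA. The share of all values taken by the signal recognition particle RNAs RN7SL1 and RN7SL2 was 9.40% to 9.72% with DMSO and 12.6% to 16.0% with selinexor, and 12.6% to 13.1% with control siRNA and 10.8% to 12.4% with XPO1 siRNA. Its part in the changes was not tested. Selinexor replicate 1 stood apart, with a log2 correlation across genes of 0.974 and 0.977 with replicates 2 and 3, which correlated at 0.991 with each other. XPO1 itself read 18568, 18950 and 18908 with control siRNA and 4260, 4377 and 4397 with XPO1 siRNA, a 4.33-fold fall (limma, adjusted p = 2.91e-14). Levels below are the authors' normalised counts, and changes are log2 differences of (value + 1) with their standard error (SE), tested with limma within each table at an adjusted p threshold of 0.05.

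All 10 licensing genes fell with selinexor, from 2.50-fold for GMNN to 6.80-fold for MCM10, and all 10 fell after XPO1 knockdown, from 1.34-fold for MCM2 to 1.82-fold for MCM6. The median log2 change over the 10 was -1.98 with selinexor and -0.56 after knockdown, where the median over all genes tested was -0.01 and 0.00. All 10 passed the filter on low values in both tables. Falls were common: 26.3% of the 18128 genes tested were called lower with selinexor and 28.6% of 17616 after knockdown, beside 22.9% and 25.9% called higher. For each of the 10 genes every treated library lay below every control library in both experiments, which held for 32.9% of genes in the selinexor table and 31.2% in the knockdown table. Ranked from the lowest log2 change upward with selinexor, MCM10 was at place 32 and CDC6 at place 36 of 18128, and GMNN, the last of the 10, was at place 579. After knockdown the places ran from 419 for MCM6 to 2171 for MCM2 of 17616. In bulk RNA, fewer cells in the phases that express a gene and less RNA per cell cannot be told apart.

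**Figure D1:**
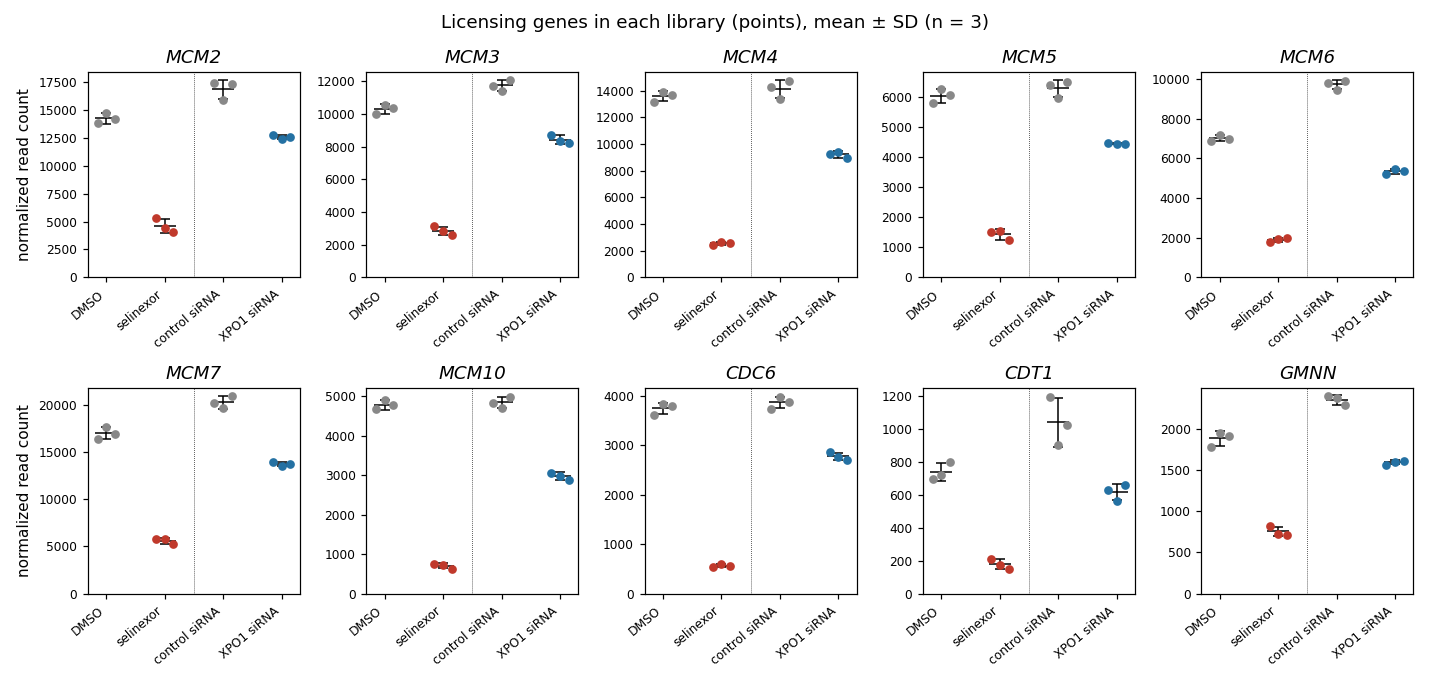
Normalised read count (linear axis from 0) of each of the 10 licensing genes, 1 panel a gene, in the 3 libraries of each group; each point is 1 library, and bars show the group mean with the SD (n = 3). Every selinexor library is below every DMSO library and every XPO1 siRNA library is below every control siRNA library, with the fold gap wider in the drug experiment; levels of the 2 experiments were normalised separately.

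CDC6 is the ATPase that recruits the helicase to the origin recognition complex (hg19 chromosome 17, 38443885 to 38459172, plus strand). Its normalised counts were 3624, 3834 and 3795 in the DMSO libraries and 542, 602 and 549 with selinexor. The selinexor libraries lay close together, far under the DMSO range. CDC6 fell 6.64-fold (log2 -2.73, SE 0.0827, limma adjusted p = 3.79e-07). With control siRNA the values were 3747, 3980 and 3890, and with XPO1 siRNA 2861, 2765 and 2707. Here too the groups did not overlap, and the fall was 1.39-fold (log2 -0.48, SE 0.0384, limma adjusted p = 2.31e-07). CDC6 was thus among the 2 largest falls of the 10 with the drug, beside MCM10, while after knockdown it differed from MCM3 (log2 -0.48) and MCM5 (log2 -0.50) by less than the SE.

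CDT1, the loader that geminin binds (hg19 chromosome 16, 88869621 to 88875667, plus strand), was the least abundant of the 10. It read 696, 718 and 800 with DMSO and 211, 170.2 and 151 with selinexor, the last group resting on an estimated 176, 161 and 138 reads. The fall was 4.18-fold (log2 -2.06, SE 0.139, limma adjusted p = 1.17e-05). The siRNA experiment gave 1194, 900.1 and 1020.3 in controls and 626, 562 and 661 after knockdown. Control siRNA replicate 1 was the high library of its group, and that group's spread was the widest of the 10 relative to its mean. It fell 1.68-fold after knockdown (log2 -0.75, SE 0.0894, limma adjusted p = 1.02e-05).

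GMNN encodes geminin (hg19 chromosome 6, 24775159 to 24786328, plus strand). DMSO libraries read 1785, 1955 and 1921 and selinexor libraries 822, 729 and 718. The 2.50-fold fall (log2 -1.32, SE 0.0907, limma adjusted p = 1.32e-05) was the smallest of the 10 with the drug. GMNN read 2400.4, 2376 and 2289 with control siRNA and 1568, 1606 and 1613 with XPO1 siRNA. That fall, 1.48-fold (log2 -0.56, SE 0.0396, limma adjusted p = 6.73e-08), was near the middle of the 10.

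The inhibitor and its target fell unequally with selinexor. GMNN per CDT1, a ratio of normalised counts not corrected for gene length, was 2.56, 2.72 and 2.40 in the DMSO libraries and 3.89, 4.29 and 4.77 in the selinexor libraries, with no overlap. The mean log2 ratio rose from 1.35 ± 0.09 to 2.10 ± 0.146 (SD, n = 3), a difference of 0.74 or 1.67-fold, with an exact two-sided permutation p of 0.1, which is the smallest p that 3 libraries against 3 can give. In the siRNA experiment the ratio was 2.01, 2.64 and 2.24 in controls and 2.51, 2.86 and 2.44 after knockdown. Those groups overlapped, and the difference of 0.18 in log2 (1.14-fold, exact two-sided permutation p = 0.3) was within the spread between libraries. It moved between 0.09, without control siRNA replicate 1, and 0.29 when single libraries were left out, and the selinexor difference between 0.67 and 0.82.

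**Figure D2:**
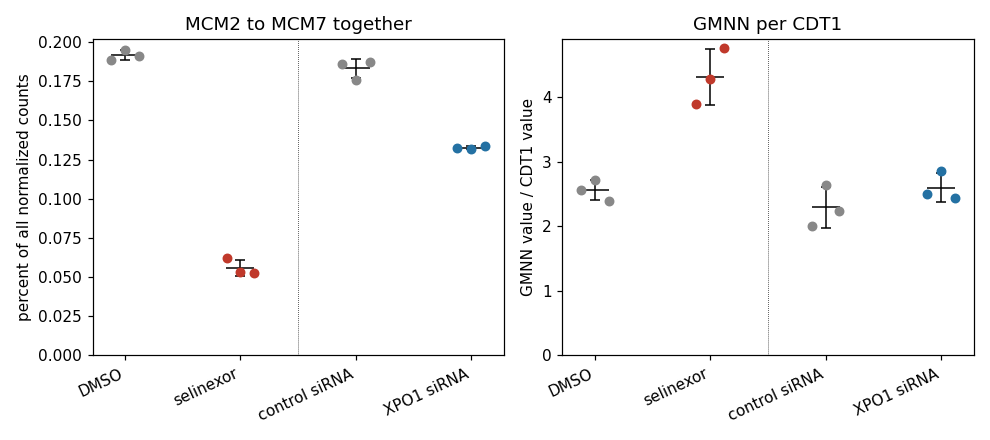
Left, the summed values of MCM2 to MCM7 as a percentage of all values in a library; right, the ratio of GMNN to CDT1 values (both axes linear from 0). Points are libraries and bars show the group mean with the SD (n = 3): the sum separates both pairs of groups, while the ratio separates selinexor from DMSO and overlaps between the siRNA groups.

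MCM2 to MCM7 form the helicase ring, 1 copy of each. Together they took 0.189%, 0.195% and 0.191% of all values in the DMSO libraries and 0.0619%, 0.0534% and 0.0529% with selinexor. The share was 0.186%, 0.176% and 0.187% with control siRNA and 0.132%, 0.132% and 0.134% with XPO1 siRNA. Neither pair of groups overlapped. The mean difference was -0.135 percentage points with selinexor and -0.0506 after knockdown (n = 3 against 3, exact two-sided permutation p = 0.1 for each, the smallest possible). All 6 subunits were called lower in both experiments. Their log2 changes spanned 0.81 from the smallest to the largest fall with selinexor and 0.45 after knockdown, and the order of the subunits differed.

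MCM4 had the largest fall of the ring with selinexor (hg19 chromosome 8, 48872745 to 48890721, plus strand). It read 13154, 13889 and 13682 with DMSO and 2425, 2622 and 2567 with selinexor, a 5.35-fold fall (log2 -2.42, SE 0.0747, limma adjusted p = 3.79e-07). The siRNA values were 14290.1, 13403 and 14689 in controls and 9274, 9416 and 8951 after knockdown, a 1.53-fold fall (log2 -0.62, SE 0.0383, limma adjusted p = 2.05e-08). MCM6 (hg19 chromosome 2, 136597196 to 136633997, minus strand) had the largest fall of all 10 after knockdown. Its values were 9812, 9481 and 9919.9 with control siRNA and 5218, 5449 and 5371 with XPO1 siRNA (1.82-fold, log2 -0.87, SE 0.0336, limma adjusted p = 1.95e-10). With DMSO it read 6891, 7190 and 6963 and with selinexor 1794, 1917 and 1961, a 3.71-fold fall (log2 -1.89, SE 0.0759, limma adjusted p = 9.17e-07). MCM4 and MCM6 share a core of the ring with MCM7, and the 3 can form a helicase by themselves in vitro.

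MCM7 (hg19 chromosome 7, 99690351 to 99699564, minus strand) was the most abundant subunit in every group. The DMSO libraries gave 16382, 17659 and 16879 and the selinexor libraries 5785, 5751 and 5220.4, a 3.04-fold fall (log2 -1.60, SE 0.0798, limma adjusted p = 2.74e-06). After knockdown it went from 20184, 19596 and 20957 to 13885, 13473 and 13696, or 1.48-fold lower (log2 -0.56, SE 0.0337, limma adjusted p = 1.38e-08). MCM2, whose tail binds histones (hg19 chromosome 3, 127317066 to 127341277, plus strand), read 13823, 14768 and 14153 with DMSO and 5312, 4434 and 4020 with selinexor. Selinexor replicate 1 was the high library, and the fall of 3.12-fold (log2 -1.64, SE 0.108, limma adjusted p = 1.07e-05) became -1.75 in log2 without it. The siRNA libraries gave 17377, 15860 and 17346 for controls and 12799, 12393 and 12600 after knockdown, a 1.34-fold fall (log2 -0.42, SE 0.0384, limma adjusted p = 8.18e-07). MCM7 and MCM2 had the smallest falls of the ring with selinexor, by values closer than their SE.

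MCM3 and MCM5, the other two subunits, lay between these. MCM3 (hg19 chromosome 6, 52128807 to 52149680, minus strand) ranged from 9991 to 10568 with DMSO, 2604 to 3112 with selinexor, 11405 to 12105 with control siRNA and 8209 to 8727 with XPO1 siRNA. Its falls were 3.63-fold and 1.39-fold (limma adjusted p = 2.19e-06 and 1.12e-07). MCM5 (hg19 chromosome 22, 35796056 to 35821424, plus strand) ranged from 5814 to 6269, 1232 to 1543, 5985 to 6509 and 4441 to 4462 in the same order of groups, with falls of 4.24-fold and 1.41-fold (limma adjusted p = 2.73e-06 and 1.13e-07). The groups of each experiment did not overlap for either gene.

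MCM10 binds the loaded helicase when origins fire and is not part of the ring (hg19 chromosome 10, 13203554 to 13253105, plus strand). With selinexor it fell about as much as CDC6: the order of the pair turned without selinexor replicate 3, where the log2 changes were -2.69 for MCM10 and -2.71 for CDC6. The DMSO libraries read 4664, 4902 and 4767 and the selinexor libraries 759.6, 721 and 632, 6.80-fold lower (log2 -2.76, SE 0.0918, limma adjusted p = 4.14e-07). With control siRNA it read 4841, 4707 and 4988, and with XPO1 siRNA 3058, 2990.4 and 2867, 1.63-fold lower (log2 -0.71, SE 0.0383, limma adjusted p = 5.51e-09). After knockdown MCM6 fell more than MCM10. CDT1 and MCM10 could not be ordered: without control siRNA replicate 1 their log2 changes were -0.64 and -0.71.

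**Figure D3:**
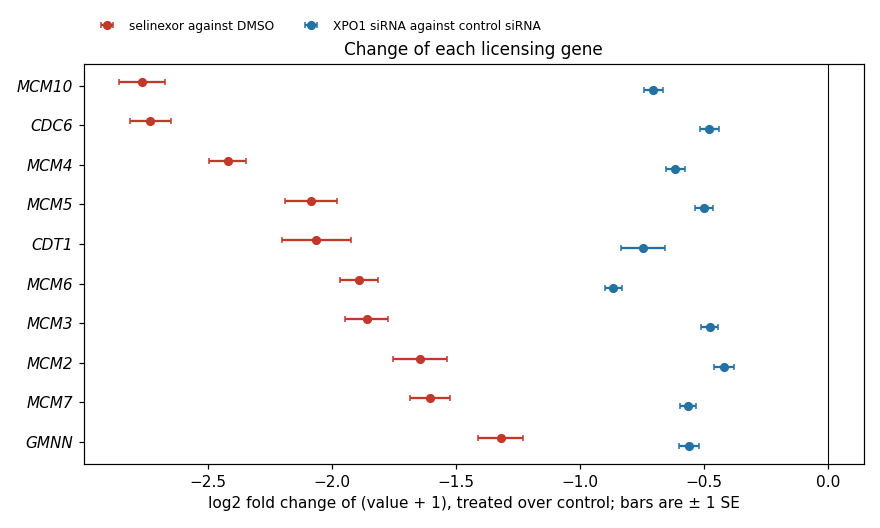
Log2 fold change of (value + 1) of each licensing gene with selinexor against DMSO and with XPO1 siRNA against control siRNA; points are limma estimates and bars are the SE. All estimates are below 0, from -2.76 to -1.32 with selinexor and from -0.87 to -0.42 after knockdown, and the order of genes differs between the experiments.

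Each gene's selinexor change was tested against its knockdown change in 1 fit over the 12 libraries. The selinexor fall was larger for all 10, and the difference was called for each (limma adjusted p under 0.05). Of the 17332 genes tested in both tables, 20.2% were called as having a lower change with selinexor than after knockdown. The median difference over all genes tested was -0.07 in log2. CDC6 had the largest difference, -2.25 in log2 (SE 0.0840, limma adjusted p = 7.18e-09), and MCM10 the next, -2.06 (SE 0.0964, limma adjusted p = 2.63e-08). GMNN had the smallest, -0.76 (SE 0.0927, limma adjusted p = 5.74e-05). MCM6, with -1.03 (SE 0.0751, limma adjusted p = 6.96e-07), and MCM7, with -1.04 (SE 0.0815, limma adjusted p = 1.33e-06), had the smallest differences of the ring. The experiments differed in agent, time and delivery, which cannot be told apart in this comparison.

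**Figure D4:**
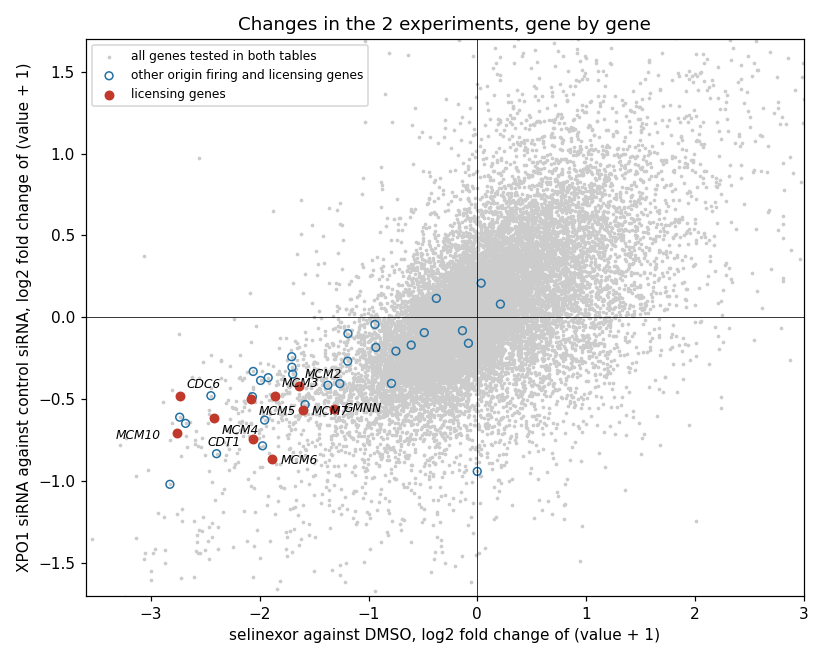
Log2 fold change of (value + 1) with selinexor (x axis) and after XPO1 knockdown (y axis) for the 17332 genes tested in both tables (grey), the 31 other licensing and firing genes (open blue circles) and the 10 licensing genes (filled red); 178 genes lie outside the axes. The filled points all lie at the lower left, between -2.76 and -1.32 on the x axis and between -0.87 and -0.42 on the y axis.

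Levels can be compared between genes only per length. Dividing normalised counts by exon length in kilobases gave, for DMSO, MCM7 4648, MCM2 3934, MCM3 3209, MCM4 3125, MCM6 1878, MCM5 1712, GMNN 1388, MCM10 1029, CDC6 779.8 and CDT1 228 per kilobase. MCM3 and MCM4 overlapped between libraries, and the other neighbours did not. The order was the same in both siRNA groups. There MCM5 and GMNN, at 1783 and 1733 per kilobase, overlapped with control siRNA, and no neighbours overlapped with XPO1 siRNA. With selinexor the order changed in 1 place: GMNN, at 557 per kilobase, stood above MCM6 at 506 and MCM5 at 405, and overlapped with MCM4 at 584. MCM7 and MCM2, at 1529 and 1267, overlapped in that group.

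Several of these genes lie beside or across another gene, and whether strand was used in the counting is not given in the sources used here. On hg19, MCM2 overlaps TPRA1 on the opposite strand by 30 bases. TPRA1 fell too, with a log2 change of -0.29 with selinexor (limma adjusted p = 0.0409) and -0.17 after knockdown (limma adjusted p = 0.0372). MCM7 overlaps AP4M1 by 393 bases at their starts. AP4M1 fell with selinexor (log2 -0.48, limma adjusted p = 0.00301), and its change of -0.11 after knockdown was not called (limma adjusted p = 0.114). COPS6, 527 bases from MCM7 on the opposite strand, fell with selinexor (log2 -0.31, limma adjusted p = 0.0369) and after knockdown (log2 -0.36, limma adjusted p = 1.15e-05). MCM4 and PRKDC, a DNA repair kinase, are transcribed away from starts 1 base apart. PRKDC fell with selinexor (log2 -0.80, limma adjusted p = 0.000103) and after knockdown (log2 -0.32, limma adjusted p = 0.000279). APRT, a purine salvage enzyme gene 80 bases from CDT1 on the opposite strand, fell with log2 changes of -0.97 and -0.71 (limma adjusted p = 7.13e-05 and 2.36e-07). CTD-2267D19.6, listed 285 bases downstream of CDC6 on the same strand, went from 137.6 ± 9.89 to 24.7 ± 5.68 (SD, n = 3) with selinexor, 5.48-fold lower (limma adjusted p = 3.66e-05), beside the 6.64-fold fall of CDC6. After knockdown its change of -0.23 in log2 was not called (limma adjusted p = 0.192).

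Of 31 other genes of origin recognition, licensing control and firing, 26 were called lower with selinexor, 0 higher and 5 were not called, with a median log2 change of -1.37. After knockdown 25 were lower, 2 higher and 4 not called, with a median of -0.35. With every library rescaled to the same total, 20 were lower and 3 higher after knockdown. The largest falls with selinexor were those of GINS2 (7.10-fold) and GINS1 (5.27-fold), subunits of the GINS complex, DTL (6.67-fold), the adaptor of the ubiquitin ligase that destroys CDT1 in S phase, CDC45 (6.42-fold), ORC1 (5.46-fold), the cell cycle regulated subunit of the origin recognition complex, and CDC7 (4.19-fold), a kinase that phosphorylates the MCM ring. After knockdown the largest falls were those of GINS2 (2.03-fold), GMNC (1.92-fold, limma adjusted p = 0.0274, with a mean value of only 14.0), GINS1 (1.78-fold), DONSON (1.72-fold), CDC45 (1.57-fold) and WDHD1 (1.54-fold), the last 3 being factors of origin firing or of the replication fork. ORC4 (log2 0.21, limma adjusted p = 0.000481) and CUL4A (log2 0.12, limma adjusted p = 0.0369) were the 2 that rose.

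The subunits of the origin recognition complex and the MCM paralogs, named here after their values were seen, moved unevenly. ORC1 and ORC6 fell 5.46-fold and 3.98-fold with selinexor. ORC2, ORC3 and ORC5 fell 1.52-fold, 1.91-fold and 1.68-fold, and ORC4 had a log2 change of 0.03 (limma adjusted p = 0.842). After knockdown ORC1 and ORC6 fell 1.39-fold and 1.31-fold, and ORC2, ORC3 and ORC5 between 1.12-fold and 1.15-fold. MCM8, a helicase of recombination repair, fell 3.79-fold and 1.29-fold in the drug and siRNA experiments, and its partner MCM9 fell 1.73-fold and 1.32-fold.

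Genes of proliferating cells outside licensing moved with the 10. All 8 of a list of S-phase and mitotic genes (PCNA, MKI67, TOP2A, CCNE1, CCNE2, CCNA2, CCNB1 and RRM2) fell with selinexor, with log2 changes from -2.89 to -1.18 and a median of -1.74. After knockdown 7 fell, with changes over the list from -0.80 to -0.13 and a median of -0.36, and MKI67 was not called (limma adjusted p = 0.142). The part of a change in cell cycle phase in the licensing gene falls was not tested. The 5 other genes whose profile over the 12 libraries was closest to the mean of MCM2 to MCM7, by root mean square difference in log2 from the control mean among 17332 genes, were KIFC1 (0.0567) and KIF2C (0.0704), kinesins of mitosis, FAM83D (0.0657) and CDCA2 (0.0680), mitotic factors, and CLMP (0.0714), a cell adhesion protein. By the same measure CDC6 stood at 0.414 and MCM10 at 0.430, places 574 and 616 of the 17332 genes. The ring subunits, which make up that mean, ran from place 2 (MCM3, 0.0635) to place 225 (MCM4, 0.257). CDT1 stood at place 83, before MCM2 at place 89, and GMNN at place 315.

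Markers of the cells were read beside these falls. Of 10 adrenergic neuroblastoma markers 9 were tested, of which 8 rose with selinexor and 7 after knockdown; their summed level was 45050.0 to 46780.0 with DMSO, 61630.0 to 68590.0 with selinexor, 57340.0 to 59610.0 with control siRNA and 72220.0 to 77250.0 with XPO1 siRNA. TH was not listed in the selinexor table. Of 8 Schwann and glial markers, S100B and GFAP were not listed, and the summed level was 3080.0 to 3282 with DMSO, 2024 to 2284 with selinexor, 3468 to 3693 with control siRNA and 3140.0 to 3266 with XPO1 siRNA. Of 10 leukocyte and endothelial markers, PTPRC, CD3E, CD68 and PECAM1 were among those not listed, and the sum was 62.8 to 67.7 with DMSO, 96.0 to 152 with selinexor, 62.6 to 70.9 with control siRNA and 112 to 119 with XPO1 siRNA. CDH5, an endothelial cadherin singled out after its values were seen, made up most of the rise, with means of 28.8 ± 2.12 with DMSO, 60.8 ± 10.9 with selinexor, 34.5 ± 2.06 with control siRNA and 79.0 ± 7.97 with XPO1 siRNA (SD, n = 3), and was the 1 gene called of 4 tested with selinexor and of 2 tested after knockdown. The part of these markers in the falls was not tested.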

How the data were processed

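Total RNA of 12 IMR5 libraries was sequenced with strand-specific kits, per the labels' protocols. The submitters' processing notes name STAR 2.7.3a, Partek, DESeq2 and hg19; how reads were counted is not stated there. The values deposited by the authors are a signal: counts per gene scaled by library size factors, set for each table by itself (20029 genes in the selinexor table, 19610 in the knockdown table). In the latter, 3 further columns of per-sample values matched no sample and were not used, and 25 symbols turned into dates were restored from coordinates. Only 62.0% to 66.8% of low values were whole multiples of a step within 0.02 (chance gives 4%), so depth was estimated from the step and no count model was fitted.

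Genes with a mean of 10 or more were tested with limma 3.58.1 (R 4.3.3; lmFit, then eBayes with trend) on log2(value + 1), group as the only term, two-sided, with Benjamini-Hochberg adjustment over all genes tested. The pseudocount of 1 slightly understates changes of low genes. The difference of effects used 4 group means. The scripts were tested on simulated data. Exact permutation tests were used for single values. Exon lengths are GENCODE unions of the basic set; promoters are from RefSeq. The members and the gene lists were chosen with earlier results of these data known. Named beyond the 10 were XPO1, neighbouring genes, the S-phase and mitotic genes, cell markers and the 5 genes nearest the MCM2 to MCM7 profile. From the licensing and firing list, up to 6 called genes with the largest change per comparison were named, with any called the other way. ORC2, ORC3, ORC5, ORC6, MCM8, MCM9 and CDH5 were named outside this rule, after their values were seen. Alternatives were other pseudocounts, filters, scalings, no trend, a replicate block and leaving out each library. Figures were drawn with matplotlib 3.10.9.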

Additional observations from a re-analysis of the deposited data

Results flagged for a closer look

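The selinexor change differed from the knockdown change for every licensing gene by a test of the difference itself (limma over the 12 libraries). The difference in log2, selinexor minus knockdown, was -2.25 for CDC6, -2.06 for MCM10, -1.80 for MCM4, -1.58 for MCM5, -1.38 for MCM3, -1.32 for CDT1, -1.22 for MCM2, -1.04 for MCM7, -1.03 for MCM6 and -0.76 for GMNN. The adjusted p was largest for CDT1, at 0.000151, and the other 9 lay at or under 5.74e-05. In each case every treated library was below its 3 controls in both experiments, so the genes differed in the size of the fall and not in its direction.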

How the results depend on the processing

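Each of the 10 genes was recomputed under 14 alternatives in each experiment and 20 for the difference of effects, and all kept their direction and stayed past the threshold. The largest adjusted p (limma) was 0.000355 with selinexor (MCM2), 0.0052 after knockdown (CDT1) and 0.00136 for the difference (GMNN). With every library rescaled to the same total, log2 changes were smaller, for example -0.33 in place of -0.42 for MCM2 after knockdown; the median of all genes then was 0.07 with selinexor and 0.09 after knockdown, and the share of called genes that were higher was 62.4% in place of 47.5% after knockdown. Single libraries moved the number of called genes from 8920 to between 6540.0 (without DMSO replicate 2) and 11113 (without selinexor replicate 1), from 9603 to between 8428 and 9148 after knockdown, and from 5519 to between 4359 and 7634 for the difference. Without selinexor replicate 1, CDT1 had a log2 change of -2.20 and MCM10 of -2.82. Libraries with the same number did not deviate together (correlations of 0.00884, 0.119 and -0.0417 in the selinexor table and -0.0311, -0.02 and -0.104 in the other), and with a replicate block 8671, 9321 and 5073 genes were called. CDT1 with selinexor rests on the fewest reads.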
